A study of Mus musculus with 12 samples.

Results

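Gas5 (growth arrest specific 5) is a gene of mouse chromosome 1 whose spliced transcript codes for no known protein. On Affymetrix Mouse Exon 1.0 ST arrays it was measured by 12 of the 221417 main probesets that carry a gene symbol, and it was 1 of 17550 symbols. A probeset is a small group of probes placed in one exon or in a segment of an exon. Gas5 was chosen by its measured values, since the signals of its probesets differed between KIS-ko and wildtype brains, and that difference is therefore given as a description with no test.

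The arrays held total RNA of whole brains from 12 newborn female mice, 6 wildtype (KIS +/+) and 6 KIS-ko (KIS -/-), with 1 array per brain and 1 littermate pair from each of 6 litters. The study asked what the loss of KIS changes in gene expression in the newborn brain. KIS is the protein kinase encoded by Uhmk1, a kinase that phosphorylates the splicing factor SF1. All the mice came from a line bred back onto C57BL6/N from an earlier mixed genetic background, and they received no treatment. The knockout is constitutive, so that KIS was missing from every cell type throughout development. Uhmk1 lies on chromosome 1 as well, 9.16 Mb above Gas5, and linked sequence is passed on together with a targeted allele. Effects of the missing kinase and of any such linked sequence, on the amount of Gas5 RNA or on the match of its probes, cannot be told apart in this design.

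Gas5 is a host gene for small nucleolar RNAs. Its introns carry box C/D snoRNAs, which guide the methylation of ribosomal RNA, and these are released when the introns are spliced out and trimmed. The spliced exons begin with a pyrimidine tract of the kind found in messengers for ribosomal proteins, they are loaded on ribosomes although they hold only short reading frames, and they are removed by nonsense-mediated decay, the pathway that destroys messengers with early stop codons. When growth stops and translation slows, this decay slackens and the transcript accumulates, which gave the gene its name. The spliced RNA can also bind the DNA-binding domain of the glucocorticoid receptor as a decoy.

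RefSeq placed Gas5 on the plus strand of chromosome 1 at 161034601 to 161038539 in assembly GRCm38.p6, a span of 3939 bases. It listed 8 transcripts and 8 snoRNA genes of 60 to 83 bases inside this span. The reference held 2 promoters, each as the 250 bases before a transcript start and the 50 bases after it. The second one, chr1:161034916-161035215, is shown because it is the sequence from which a transcript with the pyrimidine tract starts. Capitals mark, in order, the palindrome TGACGTCA (the cyclic AMP response element, first base at -46 from the start), TATATA (first base at -29) and the pyrimidine run CCTTTC (first base at -1, the last base before the annotated start).

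Gas5 promoter 2: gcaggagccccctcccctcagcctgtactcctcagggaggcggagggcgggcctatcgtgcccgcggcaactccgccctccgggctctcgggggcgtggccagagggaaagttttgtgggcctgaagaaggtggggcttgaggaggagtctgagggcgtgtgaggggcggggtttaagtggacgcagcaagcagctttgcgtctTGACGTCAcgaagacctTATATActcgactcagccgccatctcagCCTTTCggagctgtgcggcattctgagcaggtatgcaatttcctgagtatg

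The 3 motifs do not overlap in this promoter, and the other Gas5 promoter held none of them. Searched on both strands over 300 bases, TGACGTCA stood in 1.79% of the 32851 RefSeq promoters and TATATA in 5.67%. Searched only on the strand that reads as the transcript, from 10 bases before the start to 50 after it, CCTTTC stood in 2.20%. That share counts the run at any place in these 60 bases. A match describes the letters and says nothing about a factor bound there.

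The label of the animals was first checked on Uhmk1 itself. The Uhmk1 gene value, the mean over its kept probesets of log2(signal + 16), was 10.97, 10.97, 10.96, 10.95, 10.89 and 11.07 in the wildtype brains of litters 1 to 6. In their KIS-ko littermates it was 8.96, 8.62, 8.95, 8.90, 8.98 and 8.72. Every KIS-ko brain lay far below every wildtype brain, at a difference of -2.11 ± 0.19 on the log2 scale (SD, n = 6 litters), with a limma adjusted p of 2.91e-07 over all genes. Uhmk1 was the 1 gene of 17279 tested that passed an adjusted p of 0.05, or 0.00579% of them. Array medians were 460 to 526 signal units, and 69.8% of genes lay lower in KIS-ko brains, around a median gene at -0.04.

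Gas5 probesets carried PLIER signals, the linear intensity that the authors deposited. Mean wildtype signals ran from 82.5 for probeset 8 to 1942 for probeset 6, with 299 for probeset 12. For comparison, the intron control probesets of the arrays had a median of 114 and a 95th percentile of 713. Probeset 8 lay below that median, and its values carry little. In the table's own positions, for which no genome build is named, the 12 probesets cover 162965884 to 162968624 on the plus strand of chromosome 1. They fall into 4 exon blocks of the table, with 1, 5, 5 and 1 probesets.

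All 12 mean differences lay below 0 and 9 of the 12 probesets were lower in KIS-ko in all 6 litters, a pattern held by 2.09% of all main probesets. The 6 KIS-ko arrays lay wholly below the 6 wildtype arrays in 2 of the 12, against 0.125% of all main probesets. Gas5 was chosen on this contrast, so nothing is read from these shares. The median difference of the 12 was -0.70 on the log2 scale, and the range ran from -3.55 to -0.20. In these whole-brain samples a smaller number of expressing cells and less RNA per cell cannot be told apart.

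**Figure D1:**
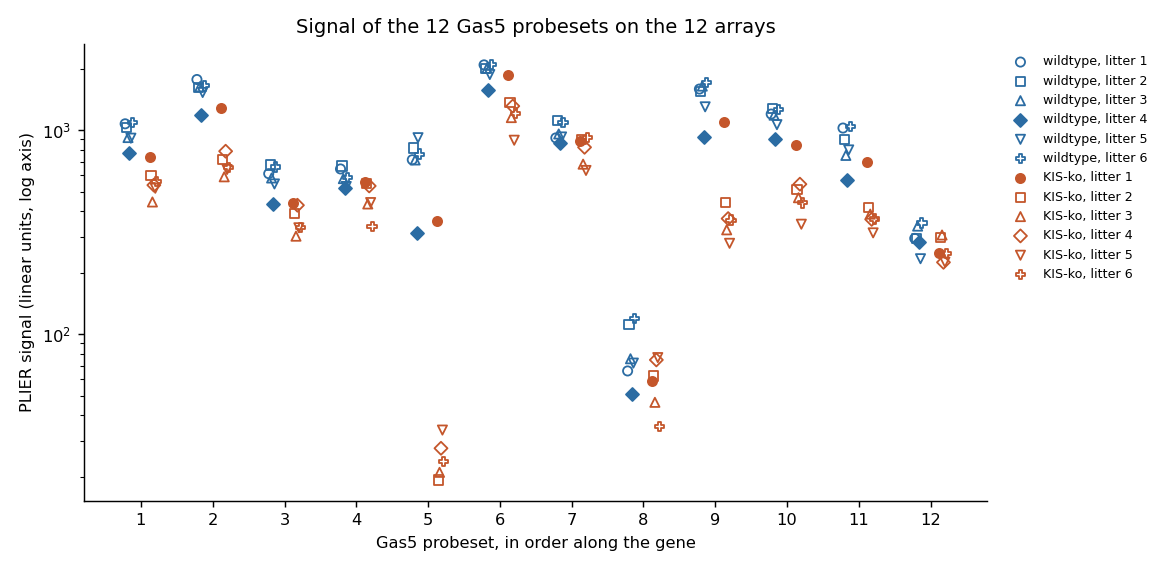
PLIER signal (log axis) of each of the 12 Gas5 probesets, numbered along the gene, with 1 point per array, blue for wildtype and orange for KIS-ko, a symbol per litter, and filled symbols for the wildtype brain of litter 4 and the KIS-ko brain of litter 1. In probeset 5 most KIS-ko arrays lie between 19.3 and 33.9, while the filled symbols lie at 313 and 357 and meet between the genotypes.

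The largest difference stood in probeset 5, 31 bases long and in the second exon block. Its wildtype signals in litters 1 to 6 were 716, 818, 714, 313, 918 and 763, and its KIS-ko signals were 357, 19.3, 21.0, 27.6, 33.9 and 23.7. In 5 litters the KIS-ko array thus lay below the intron control median of 114, and in litter 1 it stood above the wildtype array of litter 4. The difference was -3.55 ± 1.39 on the log2 scale (SD, n = 6 litters), with -0.97 in litter 1 and -2.92 to -4.56 in the others. With 5 KIS-ko signals under the control median, the size of this difference depends on the pseudocount of 16, and with signals under the control median set to it, a choice made after the values were seen, it was -2.15 ± 0.79. The relative standard deviation (RSD, the SD over the mean) was 1.69 over the KIS-ko arrays, and the study's limit of 0.4 rejected the probeset from the gene value.

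Probeset 9, which lies in the third exon block, had the next largest difference. Its wildtype signals were 1590, 1540, 1644, 930, 1301 and 1705, and its KIS-ko signals 1099, 442, 325, 368, 279 and 362. Here too the KIS-ko brain of litter 1 was the highest of its genotype, the wildtype brain of litter 4 was the lowest, and the genotypes overlapped through these 2 arrays. The difference was -1.70 ± 0.68 on the log2 scale (SD, n = 6 litters), and an RSD of 0.644 over the KIS-ko arrays rejected this probeset as well.

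Among the kept probesets the difference was largest in probeset 10. Its wildtype signals were 1199, 1272, 1184, 906, 1064 and 1264, and its KIS-ko signals 847, 512, 466, 543, 346 and 440. No KIS-ko array reached the lowest wildtype array, and the difference was -1.15 ± 0.44 on the log2 scale (SD, n = 6 litters). Probeset 1, the sole probeset of the first exon block, showed the same separation at a smaller size. Its wildtype signals were 1074, 1033, 920, 777, 913 and 1094 and its KIS-ko signals 743, 600, 444, 538, 519 and 561, a difference of -0.76 ± 0.21 (SD, n = 6 litters).

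Probesets 2 and 11 were lower in all 6 litters and overlapped by the same 2 arrays. In probeset 2 the wildtype signals were 1771, 1614, 1632, 1189, 1529 and 1647 and the KIS-ko signals 1290, 716, 590, 788, 641 and 656. In probeset 11 the wildtype signals were 1024, 898, 752, 572, 800 and 1038 and the KIS-ko signals 702, 418, 388, 365, 314 and 367. The differences were -1.03 ± 0.41 for probeset 2 and -0.99 ± 0.37 for probeset 11 on the log2 scale (SD, n = 6 litters).

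The remaining probesets moved less. Probesets 3, 6 and 7 were lower in all 6 litters, by -0.63 ± 0.35, -0.60 ± 0.34 and -0.28 ± 0.20 on the log2 scale. Probesets 4 and 12 were lower in 5 of 6 litters, by -0.31 ± 0.27 and -0.20 ± 0.18. Probeset 8 was lower in 4 litters, at -0.38 ± 0.65. Within 1 exon block, probeset 5 at -3.55 stood next to probeset 4 at -0.31.

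**Figure D2:**
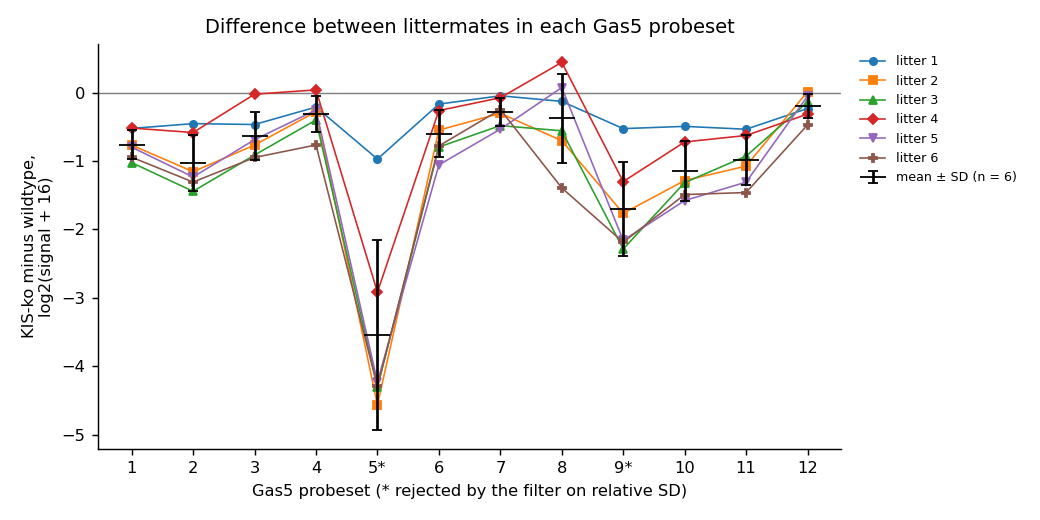
Difference between littermates (KIS-ko minus wildtype, log2(signal + 16)) in each Gas5 probeset, with a coloured line per litter, the mean ± SD over the 6 litters in black, and an asterisk for the 2 probesets rejected by the filter on RSD. Probesets 5 and 9 reach the lowest means at -3.55 (its size depends on the pseudocount) and -1.70, and litters 1 and 4 lie nearest to 0 in most probesets.

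The table marks 5 of the 12 probesets as matching 1 place in the genome only, and the other 7 as matching further places too. The 5 that match 1 place had a median difference of -0.63, the 6 of class 3 of the table one of -0.88, and the single probeset of class 2 was the last one, at -0.20. These class numbers are labels and are not read as an order. The gene value over kept probesets that match 1 place was lower by -0.59 on the log2 scale, near the -0.63 of all kept probesets.

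At the level of the gene, Gas5 values in the wildtype brains of litters 1 to 6 were 9.54, 9.61, 9.47, 9.15, 9.36 and 9.66, a mean of 9.46 ± 0.19 (SD, n = 6). In the KIS-ko brains they were 9.21, 8.93, 8.67, 8.89, 8.62 and 8.67, a mean of 8.83 ± 0.22 (SD, n = 6). The KIS-ko brain of litter 1 lay above the wildtype brain of litter 4, and no other KIS-ko brain reached a wildtype one. By litter the differences were -0.33, -0.69, -0.80, -0.26, -0.74 and -0.98. All 6 litters were lower, by -0.63 ± 0.28 on the log2 scale (SD, n = 6 litters), a ratio of 0.645.

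This difference was the third lowest of all 17279 genes, with 2 genes below it, among them Uhmk1 at -2.11. Gas5 was chosen on this contrast, so nothing is read from that rank. Set against the median gene of each littermate pair the Gas5 difference was -0.60 ± 0.24 (SD, n = 6 litters), since the median gene itself differed by between -0.11 and 0.07 from litter to litter. By the study's own measure, the fold change of each probeset weighted by the inverse of its relative variation, Gas5 stood at 0.699 ± 0.107 of wildtype (SD over litters, n = 6), with 0.567 in the lowest litter and 0.842 in the highest. Without the RSD filter, which takes out probesets 5 and 9, the difference of the gene value was -0.97. The filter thus leaves out the 2 probesets that differed most.

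**Figure D3:**
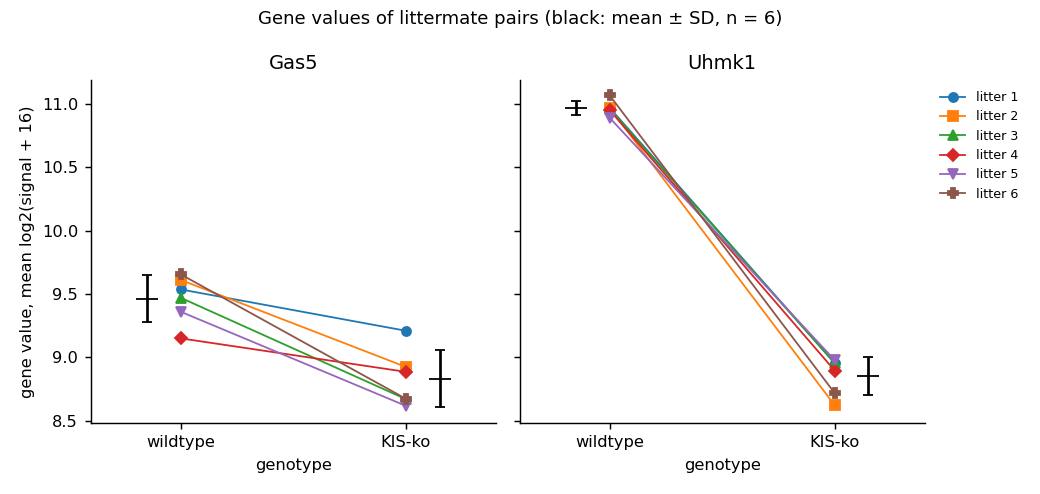
Gene values (mean log2(signal + 16) over kept probesets) of the 6 littermate pairs for Gas5 and Uhmk1, each line joining the wildtype and the KIS-ko brain of a litter, with the mean ± SD of each genotype in black. Gas5 is lower in the KIS-ko brain of every litter by amounts from -0.26 to -0.98, while the 6 Uhmk1 lines lie close together from -1.91 to -2.35.

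In Gas5, 2 arrays stood apart from the rest of their genotype. The KIS-ko brain of litter 1 was the highest of the 6 KIS-ko arrays in 9 of the 12 probesets, the wildtype brain of litter 4 was the lowest wildtype array in 11, and both held in 9. Their Uhmk1 values were not intermediate, at 8.96 and 10.95. Litters 1 and 4 had the smallest Gas5 differences, and with both left out, a choice made after the values were seen, the Gas5 difference was -0.80.

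After the array median and the genotype mean were removed from every probeset, Gas5 probesets still varied together from brain to brain. Over the 66 pairs of probesets the median Pearson correlation across the 12 arrays was 0.55, and 58 pairs were above 0. The 5 probesets with differences under -0.8 formed 10 pairs with correlations from 0.816 to 0.949. The last probeset stood apart, with correlations between -0.27 and 0.13 to the others. All pairs share the same 12 arrays, and the 2 arrays named above weigh on every pair, so these correlations describe these brains and no more.

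The genes around Gas5 were next examined for the same pattern. Within 1 Mb of Gas5 in the table's positions, 14 other genes are compared here, 6 below it and 8 above it. Their median difference was -0.06, against -0.04 for all genes, 11 of the 14 lay lower against 69.8% of all genes, and they ranged from -0.18 to 0.06. That median was -0.002 with arrays centred, -0.016 quantile-normalized, and -0.037 (without litter 1) to -0.100 (without litter 4) with each litter left out. The neighbours that lay higher were faint, at wildtype means of 6.47 to 7.08 (the intron control median is 7.03), and a lower one stood at 6.31. None of the 14 passed an adjusted p of 0.05 in limma with Benjamini-Hochberg adjustment. At an unadjusted p under 0.05, 2 of the 14 were lower and 0 higher, against 4.34% lower and 1.82% higher over all genes. That background depends on the scaling of the arrays, with 750 of 1065 such genes lower as deposited, 295 of 1109 after each array was centred and 413 of 1225 after a further quantile normalization. It also depends on litter 4, without which 3281 genes were lower at that p, and the count among the neighbours was 4 without litter 4, 0 without litter 6 and 1 without any other litter, and 1 with arrays centred.

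The gene with the lowest difference of the 14 was Zbtb37, which encodes a zinc finger protein with a BTB domain, is transcribed from the opposite strand and has its nearest probeset 3.0 kb below the first of Gas5. Zbtb37 values were 9.46, 9.51, 9.54, 9.44, 9.21 and 9.66 in wildtype and 9.41, 9.25, 9.27, 9.51, 9.03 and 9.26 in KIS-ko brains. The genotypes overlapped, and the Zbtb37 difference was -0.18 with an SE of 0.06, lower in 5 of 6 litters, with a limma unadjusted p of 0.0179 and an adjusted p of 0.685. It was about as large as the SD between brains of a genotype, 0.15 in wildtype and 0.16 in KIS-ko. Zbtb37 lost the unadjusted p without litters 3 and 6 and by the median over probesets, where it was -0.12.

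The other gene past an unadjusted p was Cacybp, the calcyclin binding protein, 823 kb below Gas5. Cacybp values were 11.53, 11.56, 11.55, 11.34, 11.52 and 11.51 in wildtype and 11.38, 11.29, 11.41, 11.45, 11.25 and 11.32 in KIS-ko brains. The wildtype brain of litter 4 was the lowest of its genotype here as in Gas5, and the KIS-ko brain of litter 4 the highest of its own. The Cacybp difference was -0.15 with an SE of 0.06, lower in 5 of 6 litters, with a limma unadjusted p of 0.0273 and an adjusted p of 0.685. Cacybp lost the unadjusted p with arrays centred and without each litter other than the fourth.

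The other near neighbours gave smaller or more scattered values. Below Gas5, the differences were -0.18 for the mitochondrial ribosomal protein gene Mrps14 (a limma unadjusted p of 0.0572), -0.10 for Rabgap1l and -0.01 for the antithrombin gene Serpinc1. Above it, they were -0.06 for Klhl20, -0.08 for Ankrd45, -0.03 for the peroxiredoxin gene Prdx6 and 0.03 for Tnfsf4. None of these passed an unadjusted p of 0.05, Tnfsf4 was faint at a wildtype mean of 6.47 (the intron control median is 7.03 on this scale), and Serpinc1 and Prdx6 turned above 0 with centred or quantile-normalized arrays. Mrps14 passed that p under other settings, at -0.35 by the median over probesets (a limma unadjusted p of 0.00566), -0.23 with probesets matching 1 place, -0.22 with no RSD filter, and -0.22 and -0.24 without litters 3 and 4, and it was -0.12 without litter 2. Klhl20 was -0.13 with no RSD filter, 0.003 by the median over probesets and -0.12 without litter 4, which passed that p (0.0324). With arrays centred, Ankrd45 was -0.025 and Rabgap1l -0.039. With each litter left out, Ankrd45 ran from -0.117 to -0.022 and Rabgap1l from -0.122 to -0.063. Among the 183 main probesets of the 14 neighbours, 1 (0.546%) had all KIS-ko arrays below all wildtype arrays, against 0.125% over all main probesets. A single one differed by under -1, a probeset of Klhl20, against 0.0257% of all main probesets.

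**Figure D4:**
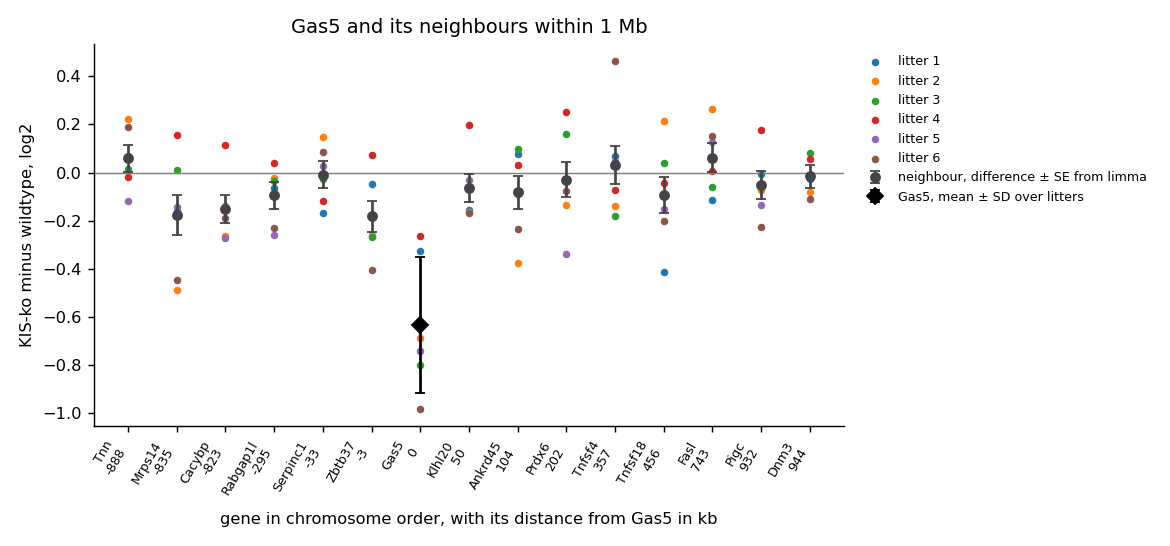
Difference between KIS-ko and wildtype (log2) for Gas5 and 14 genes within 1 Mb, in chromosome order with distances in kb, with a coloured point per litter, grey points with limma standard errors for the neighbours, and a black diamond with the SD over litters for Gas5. The neighbours lie between -0.18 and 0.06, above the Gas5 mean of -0.63, and in litter 4 they lie mostly at or above 0.

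Single probesets along the chromosome, chosen after their values were seen, were then set beside Gas5 brain by brain. Of the 1886 main probesets in the 30 Mb below Uhmk1, 11 (0.583%) differed by under -1 on average, in 8 genes, against 0.0257% of all main probesets. Of the 11, 4 belonged to Gas5, and of the 7 others 5 were rejected by the RSD filter. Gas5 was chosen on this contrast, and the 11 are also counted among all main probesets, so nothing is read from these shares. With each signal given as a percent of the probeset's wildtype mean, Gas5 probeset 5 stood at 50.6% in the KIS-ko brain of litter 1 and at 4.79% or less in the other KIS-ko brains, whose signals are under the intron control median. The wildtype brain of litter 4 stood at 44.2%. In the other 3 Gas5 probesets of this set the KIS-ko brain of litter 1 was again the highest of its genotype, at 73.8% to 82.5%, and the wildtype brain of litter 4 the lowest of its own, at 64.1% to 78.9%. The former lay above the latter in probesets 2 and 9 and below it in probeset 10.

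Closer to Uhmk1 lay 3 of these probesets. In the Ddr2 probeset, 0.11 Mb below Uhmk1, all 6 KIS-ko signals (19.0 to 46.8) lay under the intron control median of 114, against 374 to 492 in wildtype. The Uap1 probeset, 0.04 Mb below, lay at 29.0% of its wildtype mean or less in 5 KIS-ko brains, with that of litter 3 under the control median, and at 62.7% in that of litter 4. The Nuf2 probeset, 0.67 Mb below, was faint, with every KIS-ko signal at 100 or less and thus under the intron control median of 114, and its percents are not given. At these distances the KIS-ko brain of litter 1 was among the low ones for Ddr2 and Uap1, which it was not at Gas5.

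Farther away the sets of low brains changed. In the Klhl20 probeset, 9.11 Mb below Uhmk1 and near Gas5, the KIS-ko brains of litters 4 and 6 lay at 16.2% and 11.1% of the wildtype mean, and the other KIS-ko brains at 60.7% to 80.3%. In the Tnr probeset, 10.35 Mb below, the KIS-ko brains of litters 1 and 5 lay at 64.3% and 71.7% and the wildtype brain of litter 4 at 61.3%, so that the 2 brains that were intermediate for Gas5 were intermediate here too. The other KIS-ko brains lay at 23.7% or less, with that of litter 6 under the control median. The wildtype brain of litter 4 was also the lowest wildtype array in the probesets of Klhl20 at 67.3%, Arpc5 at 76.0% and Ddr2 at 91.7%, whereas that of litter 5 was the lowest in Trove2, Nuf2 and Uap1. In the Arpc5 probeset, 17.51 Mb below, and the Trove2 probeset, 26.52 Mb below, the KIS-ko brains of litters 1 and 5 were the highest or next to it, at 79.7% and 83.1% for Arpc5 and at 84.0% and 76.1% for Trove2. The brain of litter 5 was low at all 4 Gas5 probesets, unlike at Tnr.

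**Figure D5:**
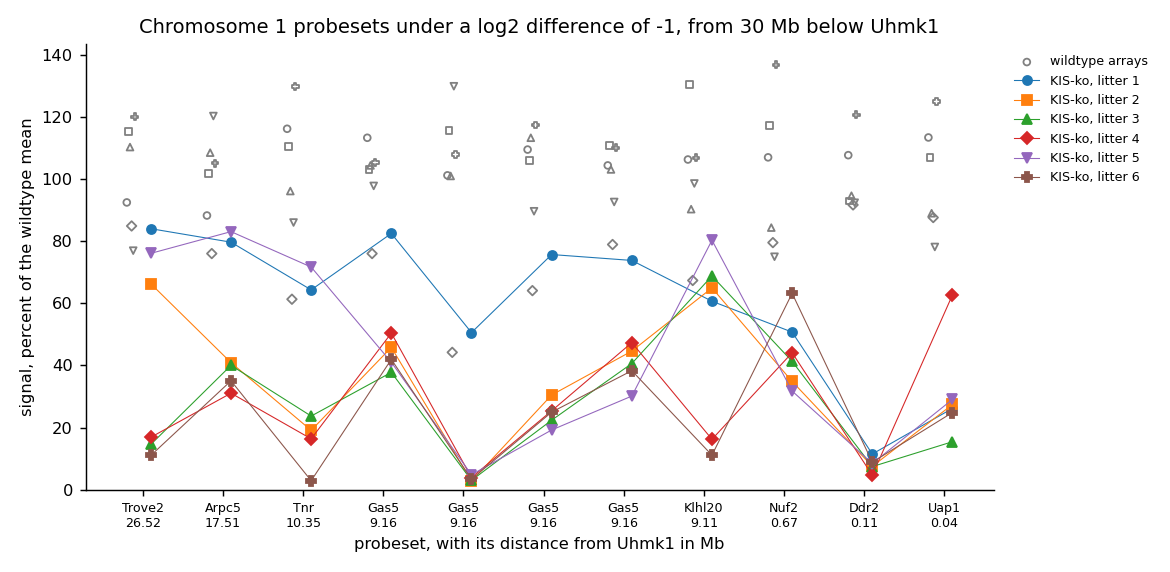
Signal as percent of the wildtype mean for the 11 probesets with a mean log2 difference under -1 in the 30 Mb below Uhmk1, in chromosome order with their distance from Uhmk1 in Mb, with grey open symbols for wildtype arrays and a coloured line per KIS-ko array. The blue line of litter 1 lies above the other KIS-ko arrays in all 4 Gas5 probesets and joins them at Ddr2, where all 6 KIS-ko signals, as in Nuf2, lie under the intron control median.

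Gas5 was then set beside genes that share its functions, from lists compiled with earlier results of these data known. Of the noncoding snoRNA host genes, 3 were measured besides Gas5. These were 2810026P18Rik (Snhg5) at -0.02, Snhg11 at -0.08 and 1810032O08Rik (Snhg16) at -0.08 on the log2 scale, and none passed an unadjusted p of 0.05 (the background was 4.34% lower and 1.82% higher). Without litter 5, Snhg11 was -0.14 and passed that p, at 0.026. The 2810026P18Rik values varied by litter from -0.33 to 0.32, and its difference turned to 0.04 with arrays centred and 0.03 with quantile normalization. None of the 3 came near the -0.63 of Gas5.

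Protein-coding genes with snoRNAs in their introns, mainly for ribosomal proteins and translation factors, also gave small differences, against a background of 69.8% of all genes lower and 4.34% lower at an unadjusted p. Of 36 measured, 34 lay lower and 0 passed an unadjusted p of 0.05, with a median of -0.05 and a range from -0.14 to 0.07. Other messengers that start with the pyrimidine tract, 50 in number, had 42 lower, 0 past that p and a median of -0.03. The medians of both lists lay near the -0.04 of all genes and turned to 0.01 and 0.02 with arrays centred. The snoRNP proteins and assembly factors that package box C/D snoRNAs had 9 of 13 lower with a median of -0.06, and 1 of them, the cochaperone component Rpap3, passed an unadjusted p at -0.16 (a limma unadjusted p of 0.0495 and an adjusted p of 0.685), which it lost with arrays centred (-0.10, 0.0673) or quantile-normalized, with a pseudocount of 1, with no RSD filter, by the median over probesets, with probesets matching 1 place, and without each of litters 1, 2, 3, 5 and 6.

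The pathways that act on Gas5 or that Gas5 acts on were covered in the same way, against a background of 69.8% of all genes lower and 4.34% lower at an unadjusted p. All 11 nonsense-mediated decay factors measured lay lower with a median of -0.06, near 0 with arrays centred, and 1 passed an unadjusted p, the exon junction protein Magoh at -0.16 (a limma unadjusted p of 0.0223 and an adjusted p of 0.685), lost by the median over probesets and without litters 2 and 6. Of the glucocorticoid receptor and its targets, 14 of 19 lay lower with a median of -0.04 that became 0.02 with arrays centred. The receptor gene Nr3c1 at -0.17 (a limma unadjusted p of 0.0277 and an adjusted p of 0.685) and Birc3, an inhibitor of apoptosis, at -0.11 (a limma unadjusted p of 0.0416 and an adjusted p of 0.685) passed an unadjusted p. Nr3c1 lost this without litters 1, 2 and 6. Birc3 lost it with arrays centred (-0.06, 0.119), with no RSD filter, with a pseudocount of 64, with arrays quantile-normalized and without each of litters 1, 2, 3, 5 and 6, and was -0.27 by the median over probesets. Birc3 was also faint, at a wildtype mean of 7.27, near the intron control median of 7.03 on this scale.

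Against the same background, the 16 genes of the TOR pathway, the kinase route that governs translation of tract-bearing messengers, had 14 lower with a median of -0.05 that became 0.01 with arrays centred. Among them Depdc6 (Deptor), an inhibitor of TOR, passed an unadjusted p at -0.13 (a limma unadjusted p of 0.0485 and an adjusted p of 0.685). Depdc6 lost this with arrays centred (-0.08, 0.101) and quantile-normalized, with no RSD filter, by the median over probesets, without each of litters 1, 2, 5 and 6, and with probesets under a mean signal of 713 left out, where it was 0.01. The 9 other growth-arrest-specific genes had 6 lower, 0 past an unadjusted p and a median of -0.02 that became 0.04 with arrays centred. No member of the lists from the noncoding hosts to the growth-arrest-specific genes passed an adjusted p of 0.05, the lowest being 0.685, and over these lists the lowest difference of a member was the -0.17 of Nr3c1, against -0.63 for Gas5.

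Signals of cell type markers were summed to describe the tissue. No other tissue was set beside them, so these sums do not check the label. The brightest genes of a list weigh most in its sum. Summed signals of 9 neuron markers were 61060 to 65830 in wildtype and 59570 to 63960 in KIS-ko brains, and the lowest sum of any marker list was 4006, for microglia. The KIS-ko brain of litter 1, the highest of its genotype for Gas5, was also the highest of its genotype for the summed markers of endothelium at 11590 (8 genes, against a KIS-ko range from 9391), meninges at 14920 (8 genes, from 13260) and erythroid cells at 20710 (7 genes, from 17040). The wildtype brain of litter 4 was the lowest of its genotype for neuron markers at 61060, choroid plexus at 10920 (6 genes, up to 12840) and meninges at 14230 (up to 14980). Their part in the Gas5 values was not tested. The 8 astrocyte markers were all lower, with a median of -0.09, and 6 of the 7 erythroid markers were higher, with a median of 0.03, against 69.8% of all genes lower. Of the astrocyte markers 1 passed an unadjusted p of 0.05, Gfap at -0.27 (a limma unadjusted p of 0.00686 and an adjusted p of 0.685). Gfap was lower in 5 of 6 litters, from -0.55 to 0.10. Of the erythroid markers 1 passed, the embryonic globin gene Hbb-bh1. Its wildtype mean was 6.11, under the 7.03 of the intron control median, so that its difference is not given. No marker of the other lists passed, against 4.34% lower and 1.82% higher at that p over all genes.

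Genes whose levels followed Gas5 from brain to brain were ranked by Pearson correlation of residuals over the 12 arrays, with the array median and the genotype mean removed, among 5704 well-expressed genes with at least 4 probesets. Gas5 residuals had an SD of 0.17, with 0.34 in the KIS-ko brain of litter 1 and -0.26 in the wildtype brain of litter 4. The 10 most alike were Anapc16, a subunit of the anaphase-promoting complex (0.896), the ribosomal protein genes Rpl22 (0.854) and Rps28 (0.848), the lipid transporter gene Mfsd2a (0.825), the glutaredoxin gene Glrx2 (0.817), Aloxe3 (0.790), Ndufs6 (0.780), Spcs3 (0.772), Eef1e1 (0.761) and Alg5 (0.735). Of these 1 lies on chromosome 1. Over the other snoRNA hosts, 30 of which met the limits, the correlations ran from -0.75 to 0.67 with a median of -0.12, against -0.10 for all genes, and over 6 neighbours within 1 Mb they ran from -0.03 to 0.43. With the litter mean removed as well, 0 of the 10 stayed among the most alike, and 4 stayed without litter 1 and 2 without litter 4, so the ranking describes these 12 arrays.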

How the data were processed

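Brain RNA was hybridized to exon arrays, and the authors normalized them by quantiles and summarized probesets with PLIER in the Affymetrix Expression Console. The intensity they deposited is the linear PLIER signal of each probeset. Probesets with an RSD above 0.4 in either genotype were rejected (15948 of 221417), as in the study's methods. A gene value is the mean over kept probesets of log2(signal + 16). In R 4.3.3, limma 3.58.1 compared the genotypes in 17279 genes, blocked by litter, and p-values were adjusted by Benjamini-Hochberg and read at 0.05. The procedure was checked on simulated data. The study describes the pairs as littermates, and the arrays were paired by the litter number assigned to each sample. Littermates' deviations from their genotype means correlated at -0.11 to 0.47, against -0.02 between litters. Precision is limited by the 12 arrays.

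Gas5, the lists and the tests were chosen with earlier results of these data known. Named were the 5 nearest genes on each side of Gas5 (except 1 not reported here, which the counts of neighbours leave out) and others within 1 Mb at an unadjusted p under 0.05, the measured noncoding hosts, list members at that p (at most 4 a list) and the 10 most alike genes. One symbol split between chromosomes 1 and 3 was set aside. Alternatives were no block, pseudocounts of 1 and 64, no RSD filter, rescaled arrays, the median over probesets, probesets matching 1 place, dim probesets left out, trend and robust moderation, and each litter left out. Promoters came from RefSeq (GRCm38.p6).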

Additional observations from a re-analysis of the deposited data

Results flagged for a closer look

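In 62 groups of 6 arrays searched (a gene or probeset in one genotype), 10 had 1 array far from the other 5 by Dixon's criterion, of which chance marks about 1 in 20. Of the 26 groups of Gas5 values, which are probesets of 1 gene on the same arrays and vary together, so that they are not separate searches, 6 were marked, and every one was the KIS-ko brain of litter 1 or the wildtype brain of litter 4. On the log2(signal + 16) scale, the wildtype brain of litter 4 was low in probeset 2 at 10.23 (next array 10.59) and in probeset 5 at 8.36 (next 9.51). The KIS-ko brain of litter 1 was high in probeset 2 at 10.35 (next 9.65), in probeset 5 at 8.54 (next 5.64), in probeset 9 at 10.12 (next 8.84) and in probeset 11 at 9.49 (next 8.76).

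Among the other genes, the wildtype brain of litter 4 was also the low one for Cacybp at 11.34 (next 11.51). The Serpinc1 value of the wildtype brain of litter 2 was 7.15 (next 7.25), the Nr3c1 value of the wildtype brain of litter 6 was 9.09 (next 8.98), and the Klhl20 value of the KIS-ko brain of litter 4 was 10.38 (next 10.22).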

How the results depend on the processing

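The Gas5 difference of -0.63 kept its direction under every setting run. It was -0.97 without the RSD filter, -0.58 to -0.82 under the other settings and -0.56 to -0.71 with each litter left out. Settings chosen after the data were seen gave -0.80 (litters 1 and 4 left out) and -0.72 (probesets 8 and 12 left out), and the probeset 5 difference was -2.15 with signals under the intron control median set to it. The fit without the litter block gave the same -0.63, since each litter holds 1 brain of each genotype, and the block changed no call named here at an adjusted p. The weighted fold change ran from 0.663 to 0.739 with each litter left out.

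Genes at an adjusted p under 0.05 numbered 2 with a pseudocount of 64, with no RSD filter and with trend and robust moderation, 5 with dim probesets (mean signal under 713, the 95th percentile of intron controls) left out, and 1 to 2 with each litter left out (2 without litter 3). At an unadjusted p the 1065 genes became 644 with dim probesets left out and 550 (without litter 6) to 3913 (without litter 4), with 695 and 605 without litters 1 and 2. The 750 lower ones became 295 with arrays centred, 413 quantile-normalized, 444 with dim probesets left out and 329 (without litter 6) to 3281 (without litter 4), with 403 and 381 without litters 1 and 2. The 2 lower neighbours became 1 with arrays centred, 4 without litter 4, 0 without litter 6 and 1 without each of litters 1, 2, 3 and 5. List medians moved as well. Without litter 4 they were -0.084 for coding snoRNA hosts, -0.064 for other tract-bearing messengers and -0.100 for snoRNP factors. At that setting they were -0.080 for decay factors, -0.081 for the glucocorticoid list (-0.005 without litter 2) and -0.084 for the TOR pathway. The cause of these shifts was not tested.

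Directions turned for Serpinc1 (0.039 with no RSD filter, 0.047 centred, 0.022 quantile-normalized, -0.04 to 0.024 with each litter left out), Klhl20 (0.003 by the median over probesets), Prdx6 (0.027 centred, 0.007 quantile-normalized, -0.085 to 0.033 with each litter left out), Tnfsf4 (-0.066 by the median, -0.055 to 0.074 with each litter left out), 2810026P18Rik (0.036 centred, 0.029 quantile-normalized, 0.066 with dim probesets left out, -0.088 to 0.041 with each litter left out) and Depdc6 (0.014 with dim probesets left out). Of the 10 genes most like Gas5, 0 stayed with the litter mean removed, and 2 (without litter 4) to 7 with each litter left out, with 4 without litter 1, 6 without litter 2 and 5 without litter 3.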
